A study of Homo sapiens with 50 samples.

Results

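Small nucleolar RNAs (snoRNAs), small Cajal body RNAs (scaRNAs) and the genes that carry snoRNAs in their introns were followed across all arrays of the series. The members were every probe, other than control spots, whose gene name begins with SNORA, SNORD, SCARNA or SNHG, or is GAS5. The rule gave 72 of 34127 probes, for 68 of 25940 gene names on the array. They were 32 H/ACA box snoRNA probes, 9 C/D box snoRNA probes, 15 scaRNA probes and 16 probes for host genes of the SNHG and GAS5 type.

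Gene expression was measured on 50 one-colour Agilent arrays in 10 groups of 5. H1299 is a human non-small cell lung carcinoma line with its inherent level of RAD9, a checkpoint and DNA repair protein. H1299shRAD9 is the same line stably carrying a short hairpin RNA against RAD9 from the plasmid pSUPER.retro.puro. The study used its stable clones interchangeably, and the labels do not say which clone gave which array. CTL cells of each line were sham-irradiated. The other 4 groups came from dishes given 1 Gy of 4He ions at a linear energy transfer of 125 keV/μm, and RNA was taken 4 h later. DBP cells were irradiated directly and their neighbouring bystanders formed micronuclei above the background level, and BP cells were those bystanders. DBN cells were irradiated directly and the micronuclei of their bystanders stayed at the background level, and BN cells were those bystanders. Dishes were thus selected on their micronucleus yield. The study describes the 5 arrays of a group as biological replicates from individual dishes.

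C/D box snoRNAs guide 2′-O-methylation of ribosomal RNA, and H/ACA box snoRNAs guide its pseudouridylation. The scaRNAs do the same work on spliceosomal RNAs in Cajal bodies. Most of these RNAs are cut from the introns of host transcripts, some of which code for ribosomal or translation proteins, whereas GAS5 and the SNHG genes are mostly noncoding, and several of their spliced RNAs are degraded by nonsense-mediated decay. Mature snoRNAs carry no poly(A) tail, and the labelling kit used here is of the linear amplification type. Whether it labelled RNAs without a tail was not tested. A signal below may therefore not be the level of the mature small RNA, and could come from a longer RNA.

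The probe sequences show what each spot could detect. All probes were 60 bases long. Of the 72, 40 had been designed on a RefSeq record and 32 on an expressed sequence tag (EST). The probes that carry the results are given 5′ to 3′ with their hg19 positions from the array annotation. SNORA33 (chr6:133138175-133138234, minus strand) and SNORA75 (chr2:232320803-232320862, plus strand) were designed on ESTs. SNORA81 (chr3:186504582-186504641, plus strand), SNORA23 (chr11:9450417-9450476, plus strand), SNORA73A (chr1:28834024-28834083, plus strand), SCARNA13 (chr14:95999692-95999751, minus strand) and a 3′ probe of SNORD3B-1 (chr17:18965382-18965441, plus strand) were designed on the RefSeq small RNA. Capitals mark the ACA triplet near the 3′ end, or, in SNORD3B-1, the letters TGATGA and the terminal CTGA.

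SNORA33: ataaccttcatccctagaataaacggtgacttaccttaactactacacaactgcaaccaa
SNORA75: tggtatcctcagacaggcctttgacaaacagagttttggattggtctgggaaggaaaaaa
SNORA81: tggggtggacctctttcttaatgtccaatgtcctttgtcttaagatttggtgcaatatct
SNORA23: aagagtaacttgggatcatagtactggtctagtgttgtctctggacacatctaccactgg
SNORA73A: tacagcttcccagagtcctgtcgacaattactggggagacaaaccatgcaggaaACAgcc
SCARNA13: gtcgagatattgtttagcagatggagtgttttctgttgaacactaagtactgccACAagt
SNORD3B-1: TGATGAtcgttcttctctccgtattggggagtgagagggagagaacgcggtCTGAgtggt

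The letters ACANNN, ending at the 3′ end of the probe or 1 base before it and read on the probe strand only, were found in 6 of 9 RefSeq-designed and 1 of 23 EST-designed H/ACA probes, against 3.87% of all probes on the array. CTGA within the last 12 bases was found in 3 of 5 RefSeq-designed and 0 of 4 EST-designed C/D probes, against 5.52% of all probes. SNORD3B-1 is U3, the snoRNA of early ribosomal RNA processing, and has near-identical genomic copies, so its probes cannot be assigned to a single copy. All 26 RefSeq-designed small RNA probes lay within the small RNA, whereas 26 of 30 EST-designed ones began further into their source than the small RNA is long. Where a host gene probe gave a strand, 12 of 19 EST-designed probes lay on the strand opposite to the host, and 0 of 21 RefSeq-designed probes did. Of those 12, only SNORA33 (in RPS12, a ribosomal protein gene), SNORA75 (in NCL, the nucleolin gene) and SNORA78 (in SNHG9) passed the background criterion. By the annotated strands, these probes do not carry the sequence of a snoRNA cut from the host transcript. Which RNA of the region they report was not tested, and they are counted with the small RNA probes by name.

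The probes named SNHG9 (chr16:2015445-2015504, plus strand) and SNORA78 (chr16:2015441-2015500, minus strand) are shown because they cover 56 identical positions on opposite strands, in capitals.

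SNHG9: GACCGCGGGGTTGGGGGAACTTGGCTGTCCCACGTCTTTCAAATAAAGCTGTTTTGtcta
SNORA78: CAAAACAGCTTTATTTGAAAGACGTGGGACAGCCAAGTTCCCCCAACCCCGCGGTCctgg

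Levels below are log2 intensities relative to the median probe of the same array, so a difference of 1 is 2-fold. A probe was called differentially expressed between lines at p under 0.005, and between an irradiated-dish group and CTL at p under 0.006, in both cases with a false discovery rate (FDR) under 10% over all 12206 features tested.

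The array median of intensity ran from 68.4 to 344, and 55.5% to 83.7% of probes were well above background on an array. The RAD9A probe, which checks the knockdown, read 3.65 ± 0.19 (SD, n = 5) in H1299shRAD9 CTL cells and 4.01 ± 0.13 (SD, n = 5) in H1299 CTL cells, or 77.9% (exact permutation test, two-sided, p = 0.0159), and the ranges overlapped. Over the irradiated-dish groups it read 3.74 against 3.87, or 91.4% (exact permutation test, two-sided, p = 0.357), and in DBN it was 3.80 in H1299shRAD9 and 3.75 in H1299. In irradiated dishes the probe thus did not separate the lines, and line differences there are differences between arrays labelled H1299shRAD9 and H1299. The probe reads RNA only, whereas the study chose its clones for a reduced RAD9 protein level by Western blot. The epithelial gene KRT18 read 10.2 to 11.6 and the mesenchymal gene VIM 10.9 to 12.3 on all arrays. Of the markers of other cell types, PTPRC, CD14 and ACTA2 were well above background on 50 arrays, VWF on 40, CD3E on 38, HBA2 on 20, COL1A1 on 8 and PECAM1 and HBB on 2 each.

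Detection divided the members by how their probes were designed. A member passed the background criterion when it failed to be well above background on under 25% of the 50 arrays, and 42 of 72 passed. Among RefSeq-designed probes 34 of 40 passed, and among EST-designed probes 8 of 32. Of the 72, 35 were well above background on every array. SNORA46 and SCARNA22 were well above background on none, and no member was saturated. Another 12 members passed but varied too little for testing, which left 30 tested probes, 13 of them H/ACA, 3 C/D, 10 scaRNA and 4 host gene probes. The within-group SD of the 29 small RNA probes that passed had a median of 0.45, against 0.32 for the 13 host gene probes and 0.33 for all 20100 features that passed. Accordingly, 89.7% of the small RNA probes, 30.8% of the host gene probes and 60.7% of all features met the criterion on variation.

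**Figure D1:**
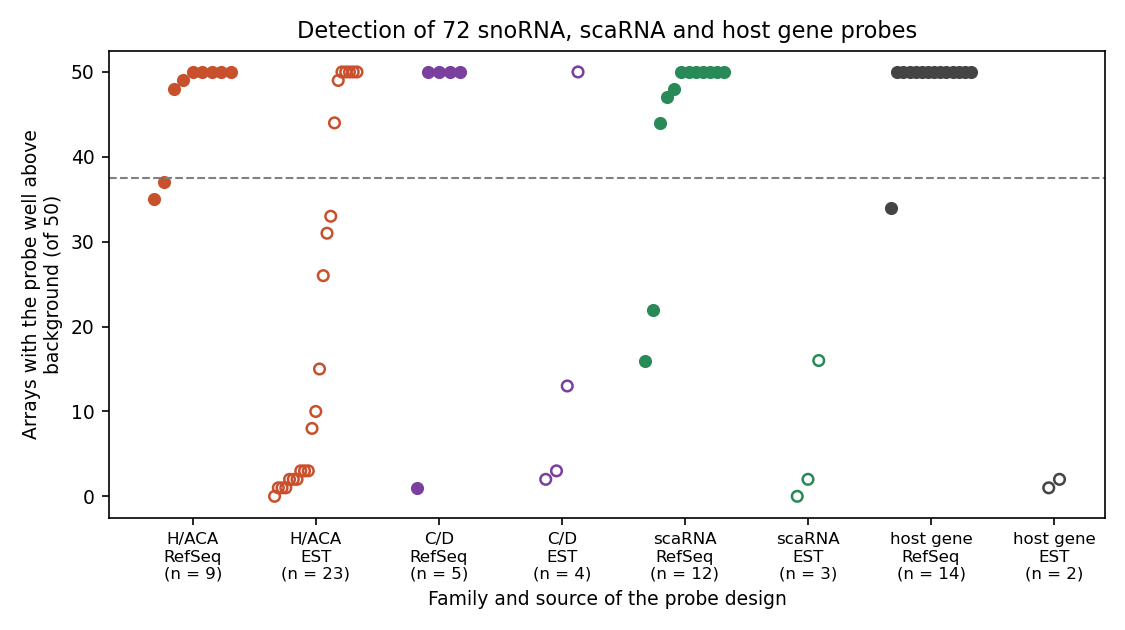
Number of arrays (of 50, y axis) on which each of the 72 probes was well above background, by RNA family and by the source of the probe design (x axis). Filled points are RefSeq-designed and open points EST-designed probes, and the dashed line is the background criterion. RefSeq-designed probes sit at 50 arrays in 29 of 40 cases and EST-designed probes in 6 of 32.

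The first question was whether the lines differed in the level of these RNAs in unirradiated cells. In CTL cells 4 of 30 tested members were differentially expressed, all higher in H1299shRAD9, against 15.5% of all features in either direction and 7.82% higher. They were the probes named for the H/ACA snoRNAs SNORA33, SNORA75 and SNORA81 and for the U3 snoRNA SNORD3B-1. Of the 30 members, 27 had a difference above 0, with a median of 0.42, whereas the median over all features was 0.10. At an unadjusted p under 0.05 there were 8 members, against 39.3% of all features. No scaRNA and no host gene passed. Both medians are descriptions. In bulk RNA, a lower level per cell and fewer cells with the RNA cannot be told apart.

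SNORA33 read 0.15, 0.27, 1.00, 0.02 and 0.72 in H1299shRAD9 CTL arrays and -1.03, -1.60, -0.32, -1.07 and -1.18 in H1299 CTL arrays. Every H1299shRAD9 array stood above every H1299 array. The difference was 1.47 ± 0.25 (SE), 2.78-fold (limma, adjusted p = 0.00299).

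SNORA75 read 0.98, 1.02, 1.61, 1.25 and 1.41 against 0.63, 0.48, 0.46, 0.44 and 0.90. These groups did not overlap either, and the difference was 0.67 ± 0.16 (SE; limma, adjusted p = 0.0161). The SNORA33 and SNORA75 probes were designed on ESTs, lie opposite to their host transcript and begin at bases 470 and 359 of their source, whereas the small RNAs are 133 and 137 bases long.

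The 3′ probe of SNORD3B-1 read 6.54, 6.39, 7.64, 6.56 and 6.72 against 5.39, 6.28, 5.26, 5.59 and 6.05, again with no overlap. It was 1.06 ± 0.26 higher (SE; limma, adjusted p = 0.0170). Groups that did not overlap in this direction made up 8.68% of all features. The brighter, 5′ probe of SNORD3B-1 varied too little for the fit and read 10.85 ± 0.17 against 10.40 ± 0.38 (SD, n = 5), a difference of 0.45 (exact permutation test, two-sided, p = 0.0238) with overlapping ranges.

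SNORA81 read 1.04, 1.09, 2.44, 1.69 and 1.74 against 0.06, 1.36, 0.13, 0.28 and 0.70. Here H1299 replicate 2 lay above 2 arrays of H1299shRAD9. The difference was 1.09 ± 0.30 (SE; limma, adjusted p = 0.0243). It lost its call without H1299shRAD9 replicate 3 (0.88), 4 (1.07) or 5 (1.06), and without H1299 replicate 1 (0.98), 3 (1.00) or 4 (1.04). Without H1299shRAD9 replicate 1 the number of members called rose from 4 to 7, and it was 2 with slide as a random block.

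H1299shRAD9 CTL replicate 3 stood apart among these probes. It was the highest of its 5 arrays for 22 of 29 small RNA probes and 7 of 13 host gene probes, and the small RNA probes lay a median of 0.51 above their group median. H1299 CTL replicate 2 was the highest for 17 of 29. Without H1299shRAD9 replicate 3 SNORA33 still differed by 1.33 and SNORA75 by 0.58, and both kept their call. No slide and no scan day carried CTL arrays of both lines, so neither can be told apart from line here. RNA coverage also differed. Over 2557 transcripts with several probes, the median level of the 5′-most minus the 3′-most probe was -1.508 to -1.404 in H1299shRAD9 CTL and -1.365 to -1.184 in H1299 CTL, without overlap, and its part in these differences was not tested.

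In irradiated dishes the lines were compared over the 4 groups together. Over the mean of DBP, BP, DBN and BN, 8 of 30 members were differentially expressed and all were higher in H1299shRAD9, against 15.2% of all features in either direction and 9.08% higher. They were the probes named for SNORA33, SNORA81, SNORA23 and SNORA73A (H/ACA), the U3 gene SNORD3B-1, and SCARNA13, SCARNA5 and SCARNA12. The median member difference was 0.46, against 0.17 over all features, and 27 of 30 were above 0. At an unadjusted p under 0.05 there were 16 members, against 39.6% of all features. The number called fell to 4 with scaling to the 75th percentile of each array, which moved the median of all features from 0.17 to 0.03. Of the 20 H1299shRAD9 arrays in these groups, 2 shared a slide with H1299 arrays, and the same 2 shared a scan day with them. Line therefore largely cannot be told apart from slide and scan day here either. Slide 13 held 1 BP array of each line, and on it all 8 probes were higher in H1299shRAD9, by 0.032 (SNORA73A) to 1.88 (SCARNA13), a comparison chosen after the line differences had been seen.

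SCARNA13, a Cajal body RNA that lies in SNHG10, had replicate means of 5.64, 5.77, 6.09, 6.11 and 6.15 in H1299shRAD9 and 4.62, 4.81, 4.88, 4.97 and 5.01 in H1299. The groups were well apart. The difference of 1.09 ± 0.15 (SE), 2.13-fold, had the smallest p of any member (limma, adjusted p = 0.000467). In CTL cells the same probe differed by only 0.31 ± 0.24 (SE; limma, adjusted p = 0.341).

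SNORA33 had replicate means of -0.87, -0.46, -0.54, -0.01 and -0.19 in H1299shRAD9 and -1.77, -3.39, -2.33, -1.08 and -1.25 in H1299. H1299 replicate 2 was the lowest. The difference was 1.55 ± 0.36 (SE), 2.92-fold (limma, adjusted p = 0.0119), and was 1.19 without H1299 replicate 2. The probe was dim: it was well above background on all 25 H1299shRAD9 arrays, and in H1299 on 5 CTL, 4 DBP, 3 BP, 3 DBN and 4 BN arrays. With normexp background correction the difference was 0.68, and with the authors' processed values 0.88, and it kept its call under both.

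SNORA81 had replicate means of 0.64, 0.68, 1.13, 1.18 and 0.98 against 0.27, -0.51, 0.08, 0.19 and 0.13. All H1299shRAD9 means were above all H1299 means. The difference was 0.89 ± 0.18 (SE; limma, adjusted p = 0.00646). In this probe H1299 BN replicate 1 was removed as an outlier spot and was left out of the fit.

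The 3′ probe of SNORD3B-1 and the probes of SNORA73A, SNORA23 and SCARNA5 also separated the lines without overlap. The 3′ probe of SNORD3B-1 differed by 0.81 ± 0.18 (SE). The brighter 5′ probe of SNORD3B-1, outside the fit, read 10.74 ± 0.13 in H1299shRAD9 and 10.19 ± 0.78 in H1299 (SD, n = 5). Its ranges overlapped, and its lowest H1299 mean was that of replicate 2 (8.80). SNORA73A, an H/ACA snoRNA also called U17 that acts in ribosomal RNA cleavage, differed by 0.88 ± 0.24, and SNORA23 by 0.82 ± 0.21. SCARNA5 differed by 0.71 ± 0.19. The adjusted p-values of these 4 ran from 0.00924 to 0.0247 (limma). SCARNA12 differed by 0.68 ± 0.19 (limma, adjusted p = 0.0270) with overlapping ranges. Altogether 8 members did not overlap, against 10.7% of all features in this direction. SNORD17, a C/D box snoRNA that varied too little for the fit, read 2.33 ± 0.06 in H1299shRAD9 and 1.86 ± 0.13 in H1299 (SD, n = 5), with no overlap. The difference was 0.47 (exact permutation test, two-sided, unadjusted p = 0.00794).

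These last calls were less stable. SCARNA12 lost its call without any of 8 of the 10 replicates, among them H1299shRAD9 replicate 3 (0.60), 4 (0.57) and 5 (0.63) and every H1299 replicate (0.64 to 0.71). Removing H1299shRAD9 replicate 3 also ended the calls of SNORA23 (0.77), SNORA73A (0.82) and SCARNA5 (0.67), and left 4 members called. Without H1299shRAD9 replicate 4, 5 members were called, with SNORA73A at 0.82 and SCARNA5 at 0.64. SNORA73A further lost its call without H1299shRAD9 replicate 5 (0.85) or H1299 replicate 1 (0.90), SNORA23 without H1299 replicate 1 (0.71), and SCARNA5 without H1299 replicate 3 (0.65). Without H1299 replicate 2, 9 members were called. SCARNA5 also lost its call with normexp background correction (0.28; limma, adjusted p = 0.209), with 75th percentile scaling (0.61) and with the authors' processed values (0.47), or under 3 of 8 alternatives other than leaving out a replicate. SNORA73A and SCARNA12 lost theirs under 3 of these 8, SNORA23 under 2 and SNORD3B-1 under 1.

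**Figure D2:**
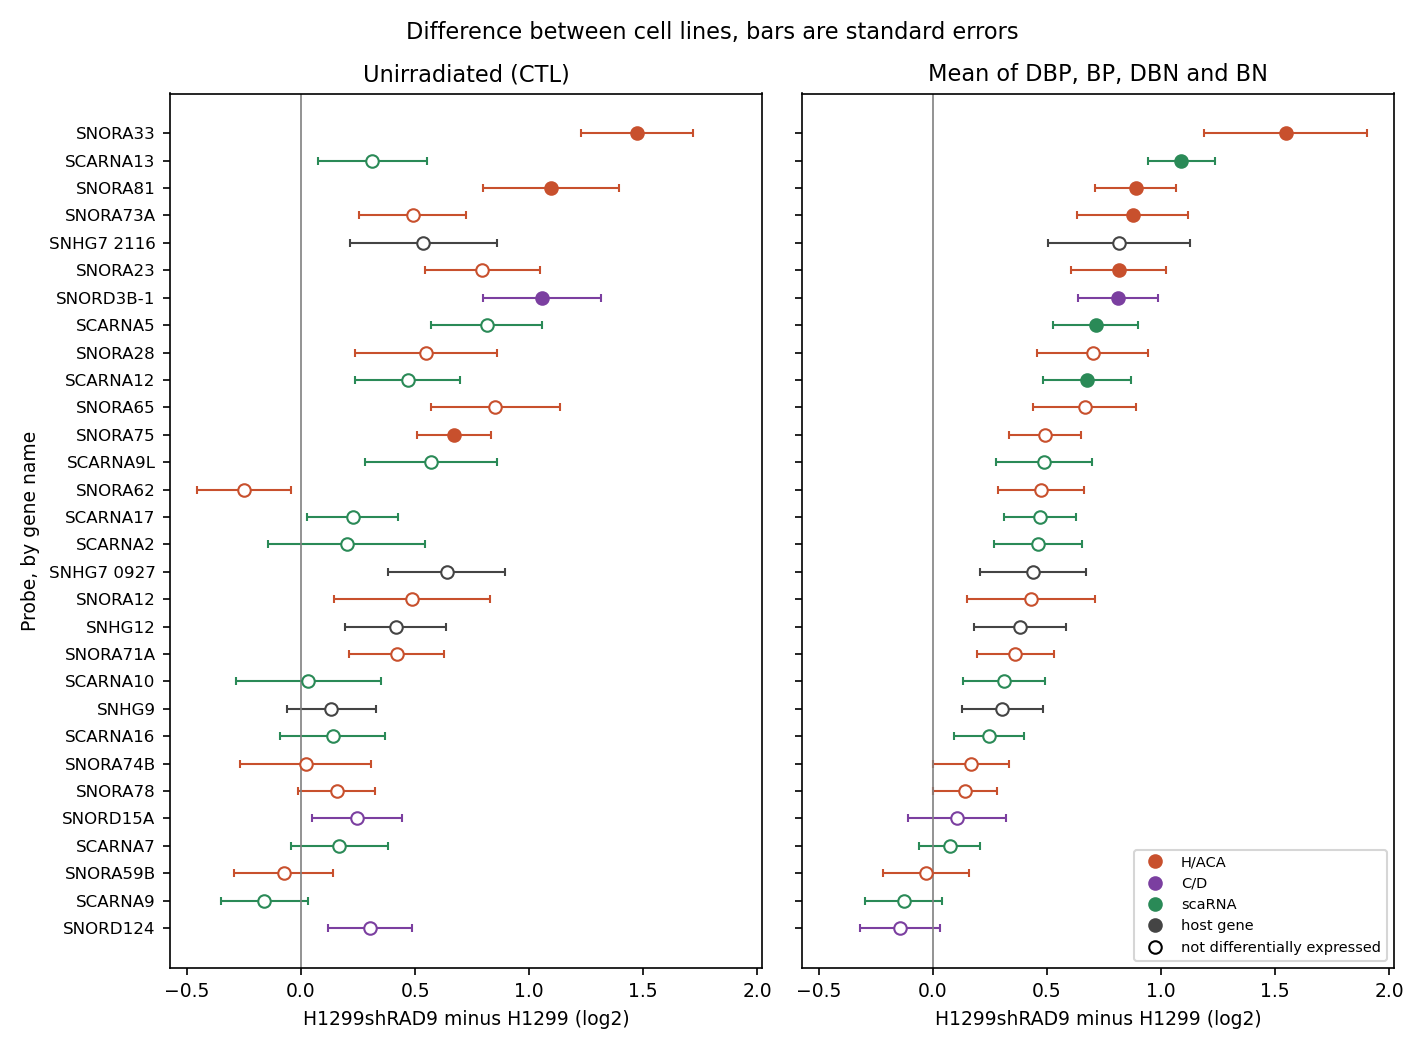
Difference between H1299shRAD9 and H1299 (log2, x axes) for each of the 30 tested probes (y axis), in CTL cells (left) and over the mean of the 4 irradiated-dish groups (right). Points are fitted differences, bars standard errors, colours RNA families and filled points differentially expressed probes. The 2 SNHG7 probes carry the end of their probe name. In each panel 27 of 30 points lie above 0, and SNORA33 is highest in both.

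The second question was whether cells on irradiated dishes differed from sham-irradiated cells of the same line. All 4 comparisons of a line share the same 5 CTL arrays. In H1299shRAD9 the members that passed were all lower than in CTL. H1299shRAD9 CTL replicate 3, the high array described above, enters each comparison, and the 5′ minus 3′ coverage value rose from -1.424 in CTL (median) to between -1.345 and -1.324 in the irradiated-dish groups. Fits without replicate 3 of the line are given below for each comparison with calls. The part of the coverage value was not tested.

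In directly irradiated DBP cells of H1299shRAD9, SNORA81 was the 1 member of 30 called, against 1.78% of all features and 0.762% lower. It read 0.54, 0.55, 0.89, 1.22 and 0.92, lower than the CTL array of the same number in 5 of 5 pairs though the ranges overlapped. The change was -0.78 ± 0.17 (SE; limma, adjusted p = 0.0959). Within slides that held both groups it was -0.85 and -0.82. The call was lost without H1299shRAD9 replicate 2 (-0.83), 3 (-0.58), 4 (-0.85) or 5 (-0.77), and without the replicate block no member was called. At an unadjusted p under 0.05 there were 12 members, 11 of them lower, against 15.1% of all features. The SNORA81 mean in H1299shRAD9 was 1.60 in CTL and 0.82 in DBP. It was also lower than CTL in BP (0.99), DBN (0.95) and BN (0.92), where the main fit did not call it.

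In BP bystanders of H1299shRAD9, the SNORA33 probe fell. It read -1.51, -0.65, -0.29, -0.41 and -0.07, below every CTL array and lower in 5 of 5 pairs. The change was -1.02 ± 0.17 (SE), 2.02-fold lower (limma, adjusted p = 0.0448). It was the 1 member called, against 2.33% of all features called and 0.164% called lower, and 0.246% of features did not overlap in this direction. At an unadjusted p under 0.05 there were 7 members, against 12.6% of all features. Within each slide holding both groups it was -0.92 and -0.79, and with normexp background correction -0.64. It lost its call without H1299shRAD9 replicate 1 (-0.86), 2 (-1.04), 4 (-1.17) or 5 (-1.07), and no member was called without the replicate block. The lower level was not limited to bystanders. Directly irradiated H1299shRAD9 cells had SNORA33 means of -0.35 (DBP) and -0.18 (DBN), also below the CTL mean of 0.43. The main fit called SNORA33 in neither of these groups.

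In DBN cells of H1299shRAD9, 4 members fell, against 4.78% of all features called and 1.36% called lower. The probe named for the H/ACA snoRNA SNORA65, in the ribosomal protein gene RPL12, was designed on an EST and fell by 0.58 ± 0.12 (SE). SNORA23 fell by 0.52 ± 0.13, and the scaRNAs SCARNA9L and SCARNA16 by 0.56 ± 0.13 and 0.51 ± 0.12. The adjusted p-values ran from 0.0682 to 0.0986 (limma). Each was lower in 5 of 5 pairs and each overlapped with CTL. At an unadjusted p under 0.05 there were 11 members, against 16.6% of all features. SNORA65, for example, read -0.71, -0.52, 0.43, 0.32 and -0.07 in DBN against -0.22, 0.19, 0.99, 0.53 and 0.85 in CTL. Leaving out H1299shRAD9 replicate 1 or 5 left 1 member called, and leaving out replicate 2, 3 or 4 left 0, as did the fit without the replicate block. The SNORA23 call was lost in all 5 of these omissions (-0.62 to -0.44) and under all 10 other alternatives (-0.53 to -0.41; limma, adjusted p = 0.104 to 0.597). SNORA65 lost its call in 5 of 5 omissions and 2 of 10 other alternatives, SCARNA16 in 4 and 5, and SCARNA9L in 4 and 3. On the 1 slide that held both groups the changes were -0.70 for SNORA65, -0.73 for SCARNA9L, -0.13 for SNORA23 and -0.12 for SCARNA16.

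In BN bystanders of H1299shRAD9 no member was called by limma, against 0.0492% of all features, and 10 were under an unadjusted p of 0.05, against 14.3%. SNORA23 had the smallest p, with a change of -0.55 ± 0.10 (SE; limma, adjusted p = 0.157), lower in 5 of 5 pairs. With all groups in 1 fit, 3 members were called, SNORA33 among them. SNORA33 did not overlap with CTL in this group either, with a change of -0.98 ± 0.28 (SE; limma, adjusted p = 0.202), where 0.377% of all features lay wholly below CTL.

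SCARNA13 ran the other way in H1299shRAD9. Its DBN arrays read 5.60, 5.72, 6.35, 6.29 and 6.003 against 5.06, 5.21, 6.12, 5.38 and 5.77 in CTL, higher in 5 of 5 pairs. The change was 0.49 ± 0.13 (SE) and did not pass (limma, adjusted p = 0.103). In DBP, BP and BN it was 0.35, 0.50 and 0.43, higher in 4 of 5 pairs in each.

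In H1299 no member was called in any of the 4 groups. All features called by limma made up 0.0573% in DBP and 0.0164% in DBN, and 0 features were called in BP and BN. At an unadjusted p under 0.05 there were 2 members in DBP against 6.26% of all features, 3 in BP against 5.83%, 8 in DBN against 3.47% and 9 in BN against 2.79%. The members with the smallest p were the dimmer SNHG7 probe in DBP (-0.76 ± 0.16, SE; limma, adjusted p = 0.295) and DBN (-1.13 ± 0.27; limma, adjusted p = 0.648), SNORA33 in BP (-1.06 ± 0.27; limma, adjusted p = 0.779) and SNORA28, an H/ACA snoRNA in EIF5, in BN (-0.64 ± 0.11; limma, adjusted p = 0.999). The change in DBN passed with all groups in 1 fit (adjusted p = 0.0471) and with slide as a random block (adjusted p = 0.0872). The brighter SNHG7 probe, of a long noncoding host gene, had a mean of 3.82 in DBP, 3.73 in DBN and 3.80 in CTL. The 2 SNHG7 probes thus gave different changes.

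The H1299 changes of SNORA33 were -0.78 (DBP), -1.06 (BP), -1.39 (DBN) and -0.47 (BN). Its lowest arrays were replicate 2 of DBP (-3.68), BP (-3.74) and DBN (-4.32) and replicate 3 of DBN (-3.74). With the authors' processed values these changes were -0.41, -0.59, -0.07 and -0.0025. None of them passed under any setting run.

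**Figure D3:**
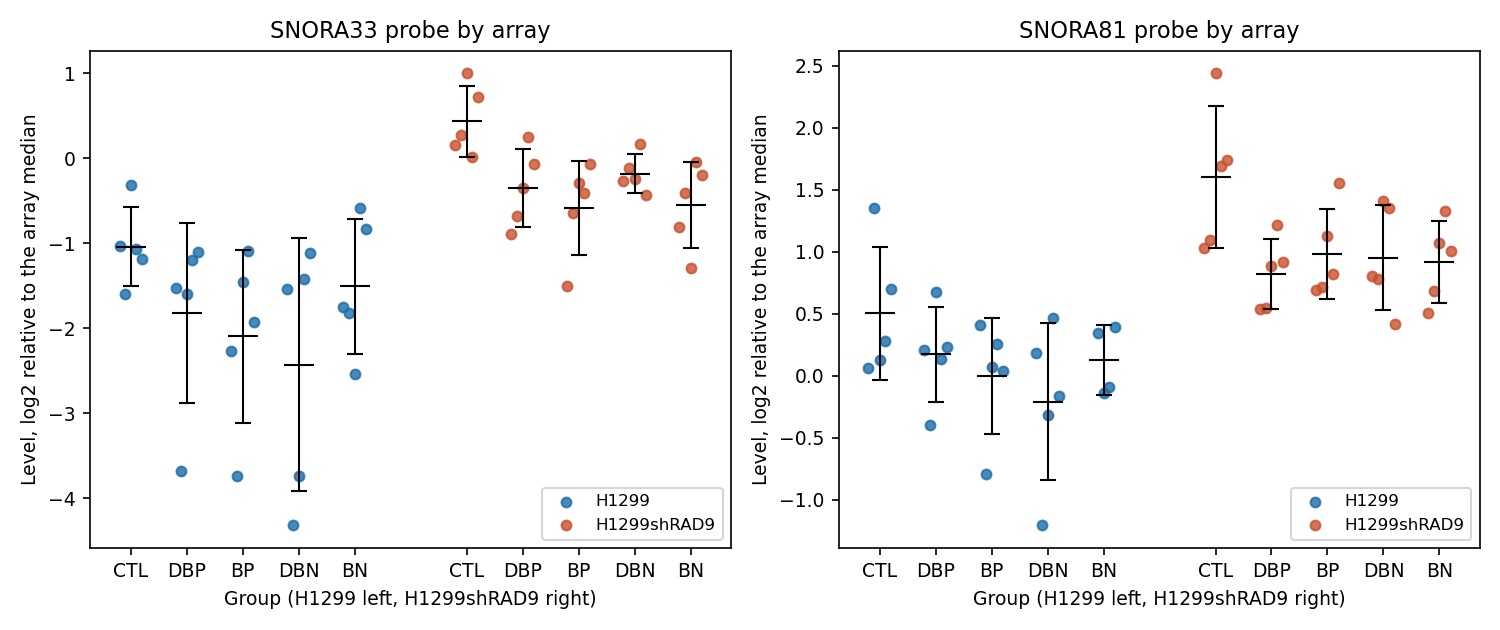
Level of the SNORA33 probe (left) and the SNORA81 probe (right) on each array, in log2 relative to the array median (y axes), in the 5 groups of H1299 (blue) and of H1299shRAD9 (orange). Points are arrays and black marks the mean ± SD. H1299shRAD9 CTL is the highest group in both panels, and the lowest SNORA33 arrays, near -4, belong to H1299.

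Single arrays stood apart in the irradiated-dish groups. In DBN of H1299, replicate 2 was the lowest of 5 arrays for 16 of 29 small RNA probes, with a median of -0.79 from the group median, while it was the highest for 9 of 13 host gene probes. The 5′ probe of SNORD3B-1 read 5.26 on that array and 10.32 to 10.77 on the other 4. In BP replicate 2 was the lowest for 13 of 29, and in DBP for 10 of 29 and the highest for 7. In BN it was the highest for 13 of 29 and the lowest for 1. Its coverage value was -1.65 in DBP, -1.56 in BP and -1.53 in DBN, each the lowest of its group. H1299 DBN replicate 1 was the lowest for 10 of 13 host gene probes, with a median of -0.92 from the group median. On that array 83.7% of probes were well above background, and the 75th percentile lay 2.87 above the median, against 3.37 to 3.80 on the other DBN arrays of H1299. H1299shRAD9 DBP replicate 1 was the lowest for 12 of 13 host gene probes, with a median of -0.44. Leaving out each replicate number in turn gave 0 member calls against CTL in every H1299 group. In H1299shRAD9 DBP, 2 members were called without replicate 1. These fits leave out all arrays of a replicate number, and the part of a single array was not tested.

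Whether the response to irradiation differed between lines was tested directly by the interaction of line and group. No member and no feature passed in any of the 4 interactions (limma), and unadjusted p-values under 0.05 were reached by 8.64%, 6.99%, 9.07% and 7.78% of features in DBP, BP, DBN and BN. SCARNA13 in DBN had the smallest p of all members. It rose by 0.49 in H1299shRAD9 while the H1299 change was -0.71, a difference of 1.19 ± 0.28 (SE; limma, adjusted p = 0.139), and the paired changes of the lines did not overlap. It was called without H1299 replicate 1 (1.13; adjusted p = 0.0723), and with all groups in 1 fit (adjusted p = 0.0827), and over the other alternatives the adjusted p ran up to 0.627. The smallest p in the other interactions belonged to SCARNA5 in DBP (-0.54 ± 0.25; limma, adjusted p = 0.584), SNORD124 in BP (-0.69 ± 0.29; limma, adjusted p = 0.687) and SNORA62 in BN (0.87 ± 0.24; limma, adjusted p = 0.565). For SNORA33 the 4 interactions, in the same order of groups, were -0.0017, 0.04, 0.77 and -0.52, with SE of 0.35 to 0.59. Outside the fit, the GAS5 change in DBP was 0.03 in H1299shRAD9 and 0.45 in H1299, a difference of -0.42, and the paired changes did not overlap (exact permutation test, two-sided, unadjusted p = 0.00794, the smallest that 5 against 5 allows). SNORA71C in BP (-0.35; unadjusted p = 0.0238) and SNORD17 in BN (0.25; unadjusted p = 0.0317) differed with overlap by the same exact test. All 12 members outside the fit were tested in each of the 4 interactions without adjustment, so small p-values can arise by chance alone. The share over all features was not computed for this test.

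**Figure D4:**
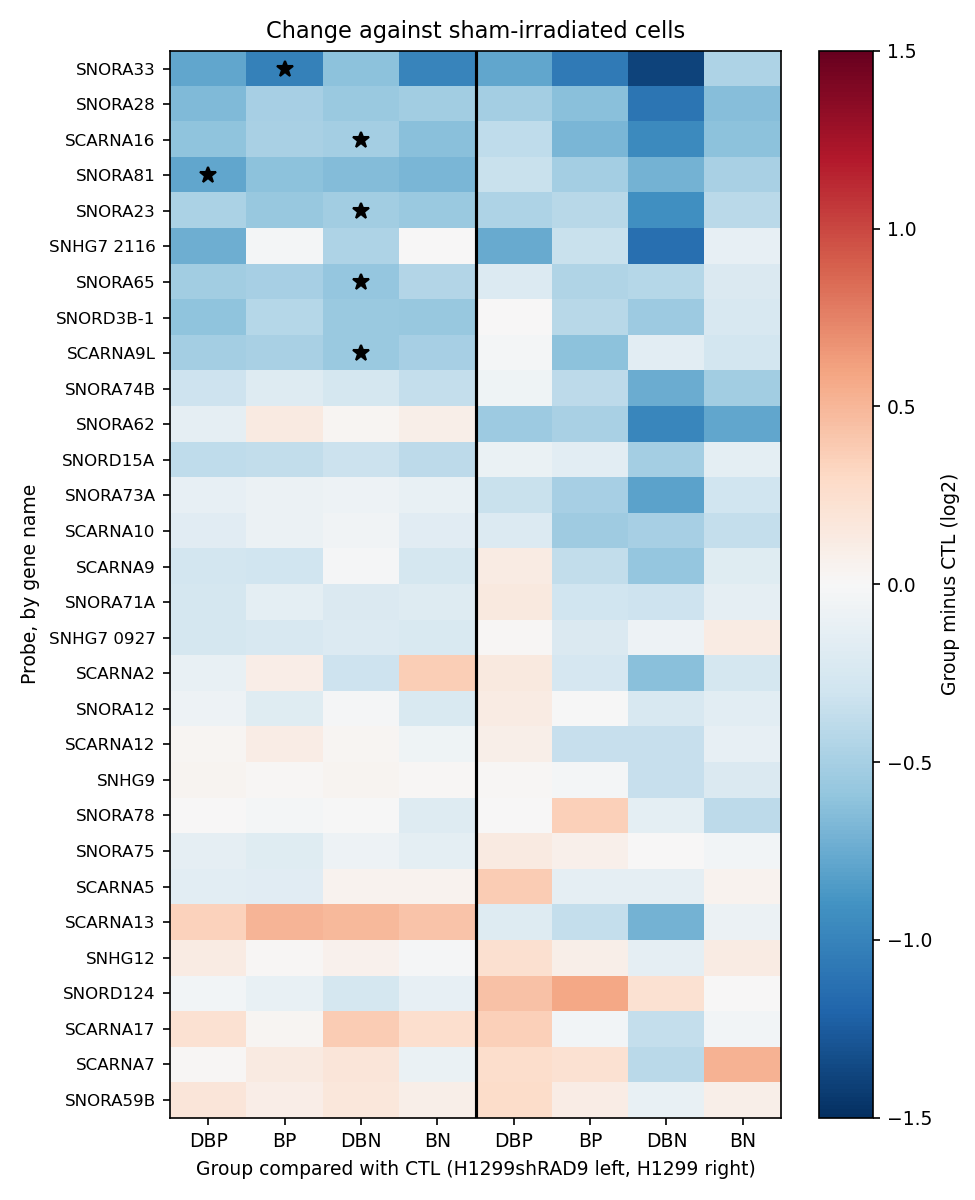
Change of each of the 30 tested probes (y axis) against CTL of the same line, in log2 (colour scale, blue lower and red higher), in DBP, BP, DBN and BN of H1299shRAD9 (left) and H1299 (right). Stars mark differentially expressed probes, 6 in all, each in H1299shRAD9 and each lower than CTL.

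The 13 host gene probes that passed background were GAS5, SNHG1, SNHG3, SNHG5, SNHG6, SNHG7 (both probes), SNHG8, SNHG9, SNHG10, SNHG11, SNHG12 and SNHG13, and none of the 4 that varied enough for the fit (both SNHG7 probes, SNHG9 and SNHG12) was differentially expressed in any of the 14 comparisons. GAS5, the growth arrest-specific host gene of many C/D snoRNAs, ranged over group means of 9.80 to 10.25. SNHG5 ranged from 10.28 to 10.70, SNHG6 from 9.12 to 9.37 and SNHG8 from 9.13 to 9.47. SNHG1 lay at 6.88 to 7.26, SNHG3 at 8.45 to 8.98 and SNHG9 at 7.02 to 7.54. SNHG10, SNHG11, SNHG12 and SNHG13 ranged from 4.79 to 5.15, 3.15 to 3.43, 5.29 to 5.96 and 4.78 to 5.14. The widest range was that of the dimmer SNHG7 probe, 1.26 to 2.94, against 3.59 to 4.44 for the brighter one.

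The 9 host gene probes outside the fit were set against CTL by an exact permutation test within pairs, two-sided, whose smallest p for 5 pairs is 0.0625. GAS5 in DBP of H1299 reached it, with 10.25 ± 0.31 against 9.80 ± 0.10 in CTL (SD, n = 5), higher in 5 of 5 pairs. SNHG10 was lower in 5 of 5 pairs in DBP (-0.27) and DBN (-0.28) of H1299. SNHG5 was higher in 5 of 5 pairs in DBP of H1299 (0.26), and SNHG8 lower in DBN of H1299 (-0.19) and higher in DBP of H1299shRAD9 (0.09). SNHG6 was higher in 5 of 5 pairs in BP (0.17), DBN (0.13) and BN (0.12) of H1299shRAD9. In each of these the ranges overlapped with CTL, and the design cannot reach 0.05. The 9 probes were tested in every irradiated-dish group of both lines without adjustment, and the groups of a line share their CTL arrays. By chance alone, all 5 pairs agree in direction at a rate of 0.0625. The share over all features was not computed.

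Between lines, 11 of the 13 host gene probes lay above 0 in CTL cells, with a median of 0.22, and 11 of 13 over the irradiated-dish groups, with a median of 0.20. The medians over all features were 0.10 and 0.17. GAS5 in CTL was 10.10 ± 0.22 against 9.80 ± 0.10 (SD, n = 5; exact permutation test, two-sided, unadjusted p = 0.0397), and SNHG3 8.95 ± 0.19 against 8.67 ± 0.14 (unadjusted p = 0.0397 by the same exact test), both with overlapping ranges. Both came from the 9 host gene probes outside the fit. By limma, 39.3% of all features tested had an unadjusted p under 0.05 in this comparison.

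Small RNA probes were also set against the host gene that spans them, since an intronic snoRNA and its host come from the same primary transcript. Hosts were taken from the positions of genes in RefSeq (GRCh38), and 22 pairs had both probes above background. These pair tests were chosen after the line differences had been seen. In 3 of them (SNORA33 in RPS12, SNORA75 in NCL and SNORA78 in SNHG9) the probe lies on the opposite strand, so its sequence is not that of the host transcript. Among the other 19, of which SNORA65 had no strand to compare, the line difference of the small RNA exceeded that of its host in 16 over the irradiated-dish groups, with median differences of 0.48 for the small RNAs and 0.21 for the hosts. In CTL cells it did so in 15 of 19, with medians of 0.31 and 0.06. SNORA81 was higher by 0.89 over the irradiated-dish groups while its host EIF4A2, a translation initiation factor, differed by -0.11, a gap of 1.00 (exact permutation test on the per-replicate gap, two-sided, p = 0.00794, adjusted p = 0.0873 over 44 comparisons). In CTL cells the gap of this pair was 1.15. SCARNA13 and SNHG10 differed by 1.09 and 0.24 over the irradiated-dish groups, with the same exact p. Among the 19 pairs, each compared in CTL and in irradiated dishes, these 3 gaps were the ones that did not overlap between lines. The share of such gaps over other pairs of features was not computed. The SNORA33 probe and RPS12, on opposite strands, differed by 1.55 and 0.17, also without overlap. The smallest p that 5 against 5 allows is 0.00794, and no gap had an adjusted p under 0.05.

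**Figure D5:**
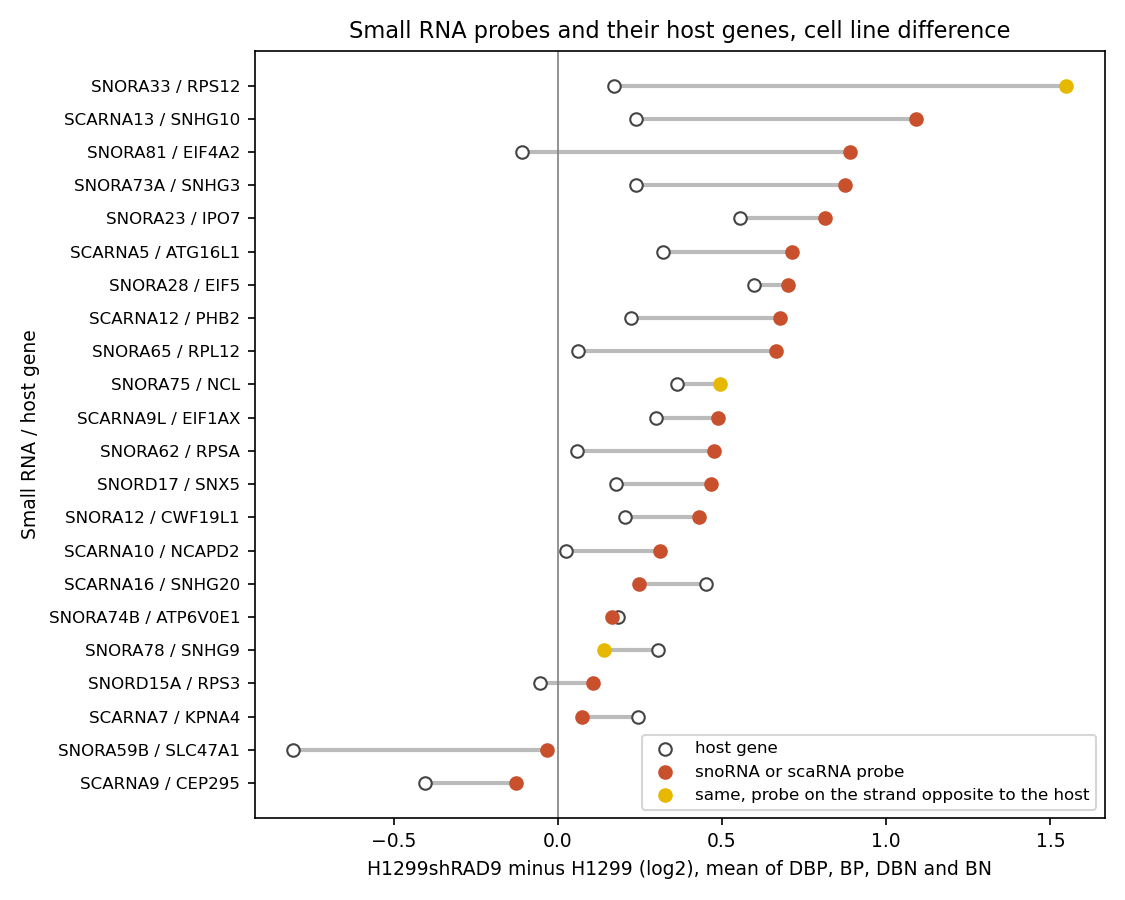
Difference between H1299shRAD9 and H1299 over the irradiated-dish groups (log2, x axis) for 22 small RNA probes (filled) and their host genes (open), joined by a line for each pair (y axis). Yellow points are small RNA probes on the strand opposite to the host. The filled point lies to the right of the open one in 18 pairs, 16 of them among the other 19 pairs.

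The proteins that build and decay these RNAs were followed as well. Of all features, 15.5% were called between lines in CTL cells and 15.2% in irradiated dishes, with median differences of 0.10 and 0.17. Of 25 genes listed for snoRNP proteins, 8 could be tested, with medians of 0.34 and 0.48. NOLC1, a snoRNP chaperone, was 0.77 ± 0.18 higher in H1299shRAD9 CTL cells (SE; limma, adjusted p = 0.0141), the 1 called of 8, and in irradiated dishes 3 of 8 were called higher, namely NOLC1 (0.96), the C/D core protein NOP56 (0.49) and the H/ACA core protein NHP2 (0.55). Of 6 tested nonsense-mediated decay factors none was called in CTL and UPF2 was called higher in irradiated dishes (0.66), with list medians of 0.27 and 0.37. Of 26 tested snoRNA host genes of any kind, EIF5 was called higher in both comparisons of lines (0.58 and 0.60), MAGED2 lower in both (-0.79 and -0.55), and NOP56, itself a host gene, higher in the second, so that 2 and 3 of 26 were called, with medians of 0.085 and 0.31. Against CTL, EIF5 fell in DBP of H1299shRAD9 (-0.55), and no other gene of these lists was called in any irradiated-dish group of either line.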

How the data were processed

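Per the file headers, the deposited files are Agilent Feature Extraction output of 1-colour Cy3 arrays. The values used were the processed signal intensities, which the authors' software had background-corrected. The log2 values in the authors' deposited series table, normalised by them, were used only as an alternative. The members, gene lists and comparisons were chosen with earlier results of these data known. Non-uniform and population outlier spots were removed, log2 intensities were averaged per probe, and each array's median over 34127 probes was subtracted. Features not well above background on 25% or more of arrays were dropped (20100 left), as were those differing 1.3-fold from the median on under 20% of arrays (12206 left). Differences were fitted with limma 3.58.1 in R 4.3.3 with Benjamini-Hochberg adjustment, with the replicate number as a block against CTL and in interactions, and checked on simulated data with known differences. In H1299shRAD9 same-numbered arrays deviated together (mean correlation 0.487 to 0.532, lowest 0.206). In H1299 the mean was 0.139 to 0.414, with pairs as low as -0.208. Members kept out by the variation criterion were tested by exact permutation. Genes named are SNORA33, each host gene above background, each called member, and, where none was called, the member with the smallest p. Member names were matched to RefSeq by accession (40), symbol (29) or older symbol (3). Files of arrays give no read depth, so the number of arrays limits precision.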

Additional observations from a re-analysis of the deposited data

Results flagged for a closer look

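Among 290 groups of arrays, over the probes named here, 29 (10.0%) held an array whose gap to the next was more than Dixon's critical value, where chance alone gives about 1 in 20. The arrays of H1299 replicate 2 held many of these. In BP it was low for SNORD3B-1 (3′ probe, 3.83), SNORA23 (0.35), SNORA28 (1.37) and SNORA73A (0.99), and high for SNHG1 (7.79). In DBN it was low for SNORA28 (-0.20), SNORA65 (-1.92), SNORA73A (0.94) and the 5′ probe of SNORD3B-1 (5.26). In DBP it was low for SNORA33 (-3.68) and high for SNHG1 (8.14) and SNHG5 (11.08). In CTL it was high for SNHG11 (3.73) and SNHG5 (10.60).

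Elsewhere in H1299, replicate 1 of DBP was low for the 3′ probe of SNORD3B-1 (4.71), replicate 3 of CTL for its 5′ probe (9.73), replicate 3 of DBN for the brighter SNHG7 probe (2.90) and replicate 3 of BN for SNHG1 (6.64).

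In H1299shRAD9, CTL replicate 3 was high for the 3′ probe of SNORD3B-1 (7.64) and for SNORA28 (4.73). DBP replicate 1 was high for SNORD124 (0.79) and low for SNHG10 (4.79) and SNHG5 (10.30), and DBP replicate 3 was low for SNHG11 (2.97). BP replicate 1 was low for SCARNA9L (3.30). DBN replicate 3 was low for SNORD124 (-0.32), and DBN replicate 5 was high for SNHG13 (5.28) and low for the 5′ probe of SNORD3B-1 (10.48). BN replicate 3 was high for SNORA65 (0.80).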

How the results depend on the processing

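Line calls in CTL numbered 4. They were 7 with positive and significant signal as the background criterion, 7 with detection on 4 of 5 arrays of either group, 2 with slide as a random block, and 3 to 7 without each replicate in turn. The 8 line calls in irradiated dishes became 4 with 75th percentile scaling, 5 with quantile normalization, 4 with the authors' processed values, and 4 to 9 without each replicate. In H1299shRAD9, the 1 call in DBP became 3 with 75th percentile scaling, 3 with quantile normalization, 3 with normexp, 2 with all groups in 1 fit, 2 with the authors' values, 0 with positive and significant signal, 0 with slide as a block, 0 without the replicate block, and 0 to 2 without each replicate. The 1 call in BP became 0 with positive and significant signal, 0 without the replicate block, and 0 to 1 without each replicate. The 4 calls in DBN became 2 with 75th percentile scaling, 2 with all groups in 1 fit, 2 with slide as a block, 0 with positive and significant signal, 0 without the replicate block, and 0 to 1 without each replicate. The 0 calls in BN became 3 with all groups in 1 fit. In H1299, 1 member was called in DBP with positive and significant signal, and 1 in DBN with all groups in 1 fit or with slide as a block. The interaction in DBN gave 1 call with all groups in 1 fit and 0 to 1 without each replicate. The line comparisons with the replicate block gave 3 calls in CTL and 10 in irradiated dishes.

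The SNORA33 interaction in BP (0.04) turned to -0.074 with 75th percentile scaling, -0.35 with normexp, -0.45 with the authors' values and -0.0025 with slide as a block, and ran from -0.23 to 0.30 without each replicate. In DBN (0.77) it was -0.54 with the authors' values. In DBP (-0.0017) it ran from -0.33 to 0.21 without each replicate. The cause was not tested. The calls of SNORA33 and SNORA75 between lines in CTL, and of SNORA33, SNORA81 and SCARNA13 in irradiated dishes, held under every alternative run. Slide as a random block and all groups in 1 fit were not run for the comparison of lines in irradiated dishes. The lines' replicate numbers do not pair (mean correlation -0.013). Dim probes such as SNORA33 lie close to background in H1299, which limits their fold changes.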
